A study of Mus musculus with 8 samples.

Results

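Plasminogen activation at the cell surface is a proteolytic cascade that tumor cells use to degrade fibrin and extracellular matrix. The serine proteases urokinase (*Plau*) and tissue-type plasminogen activator (*Plat*) cut plasminogen into plasmin, urokinase is held at the membrane by its receptor (*Plaur*), and inhibitors of the serpin family, such as protease nexin-1 (*Serpine2*), block the activators. Pigment epithelium-derived factor (*Serpinf1*) has the serpin fold but does not inhibit proteases, and is known as a secreted factor that restrains blood vessel growth. The genes described here are *Plau*, *Plat*, *Plaur*, *Serpine2* and *Serpinf1*, taken by symbol from the deposited table: 5 of its 55414 genes, each found in 1 row.

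B16F10 cells, a mouse melanoma line, were profiled by RNA-seq of total RNA depleted of ribosomal RNA in 8 libraries, 2 in each of 4 groups. WT cells and CypD KO cells, in which *Ppif*, the gene of cyclophilin D (CypD), was targeted with CRISPR/Cas9 and puromycin-resistant clones were selected, were kept for 24 h at 21% oxygen. Control cells, stably transfected with the empty pcDNA vector and selected with G418, and CypD OE cells, stably transfected with pcDNA-CypD, were kept for 24 h at 1% oxygen. How many clones each line holds, and whether the libraries of a group came from separate cultures, is not given in the sources used here, so p-values measure the spread between these libraries, which may be technical. Oxygen and stable transfection differ together between WT and Control cells and cannot be told apart. CypD OE against WT, CypD KO against Control and CypD OE against CypD KO also differ in oxygen. In these comparisons oxygen, genotype and vector cannot be told apart, and they are given for the order of levels.

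*Ppif* read 50.68 and 49.99 TPM in WT (TPM, transcripts scaled to a fixed total per library), 10.4 and 12.1 TPM in CypD KO, 44.6 and 42.3 TPM in Control, and 50.3 and 49.3 TPM where the label was CypD OE. Its log2 fold change was -2.07 in CypD KO against WT (limma adjusted p = 3.81e-06). It was 0.19 in the CypD OE-labelled libraries against Control (limma adjusted p = 0.0794), so directions given for the CypD OE-labelled libraries depend on that label being right. The paper reports overexpression of CypD protein in the selected clones by western blot, whereas the values here are RNA. Whether transcripts of pcDNA-CypD are counted under *Ppif* was not tested. The melanoma marker list (*Mitf*, *Sox10*, *Pmel*, *Tyr*, *Tyrp1*, *Dct* and *Mlana*) had 7 of 7 genes at 1 TPM or more in every group. It summed to 15665 to 15755 TPM in WT and 12433 to 12587 TPM in CypD KO. The sums were 20446 to 20984 TPM in Control and 13586 to 13758 TPM in CypD OE. Of the 7, only *Tyr* had a higher mean in CypD KO (157 TPM) than in WT (39.3 TPM). Between 17942 and 19692 genes were above 0 per library. Approximate fragment numbers behind low values were estimated from the steps between them.

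Genes that reached 1 TPM in 2 or more libraries entered limma as log2(TPM + 1), with 1 mean per group and adjustment over all 13526 genes tested. Fold changes of scarce transcripts are understated on this scale. All 5 genes passed this filter. *Plau* passed it only through the CypD KO and Control libraries. *Serpine2* passed it only through the CypD KO and CypD OE-labelled libraries, with 1 Control library at 1.06 TPM. Calls of these 2 genes for those groups are therefore not free of the filter. In CypD KO against WT cells, *Plau*, *Plat*, *Plaur* and *Serpine2* rose and *Serpinf1* fell (adjusted p under 0.05), where 30.1% of all genes tested were higher and 18.4% lower. After a median-of-ratios rescaling the split over all genes was 3204 higher and 3482 lower instead of 4066 and 2486, the median of all genes moved from 0.09 to -0.007, and the calls of the 5 genes did not change. In the CypD OE-labelled libraries against Control, *Plat* and *Plau* fell and *Plaur* and *Serpine2* rose, where 18.3% of all genes were lower and 19.0% higher. In Control against WT, *Plau* and *Plat* rose, where 12.1% of all genes were higher and 12.1% lower. The 5 genes had median log2 fold changes of 1.77, -0.04 and -0.01 in these comparisons, against 0.09, 0.002 and 0.01 over all genes tested.

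**Figure D1:**
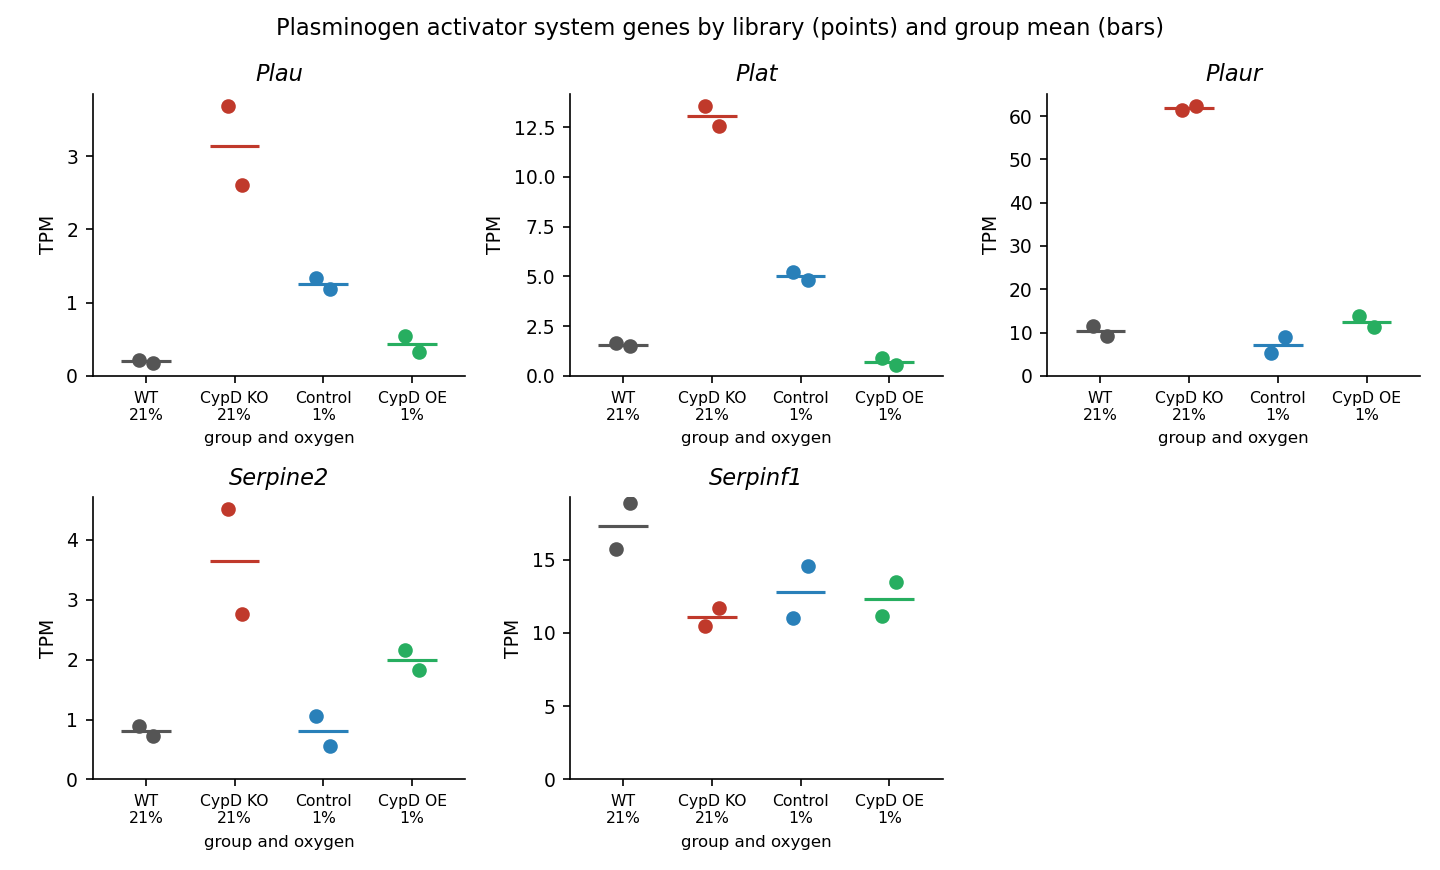
TPM of the 5 genes in each library (points, n = 2 per group) with the group mean (bar), for WT and CypD KO cells at 21% oxygen and Control and CypD OE cells at 1% oxygen; each panel has its own axis from 0. *Plau* and *Plat* are highest in CypD KO and next in Control, *Plaur* stands out in CypD KO alone, and *Serpinf1* is highest in WT.

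**Figure D2:**
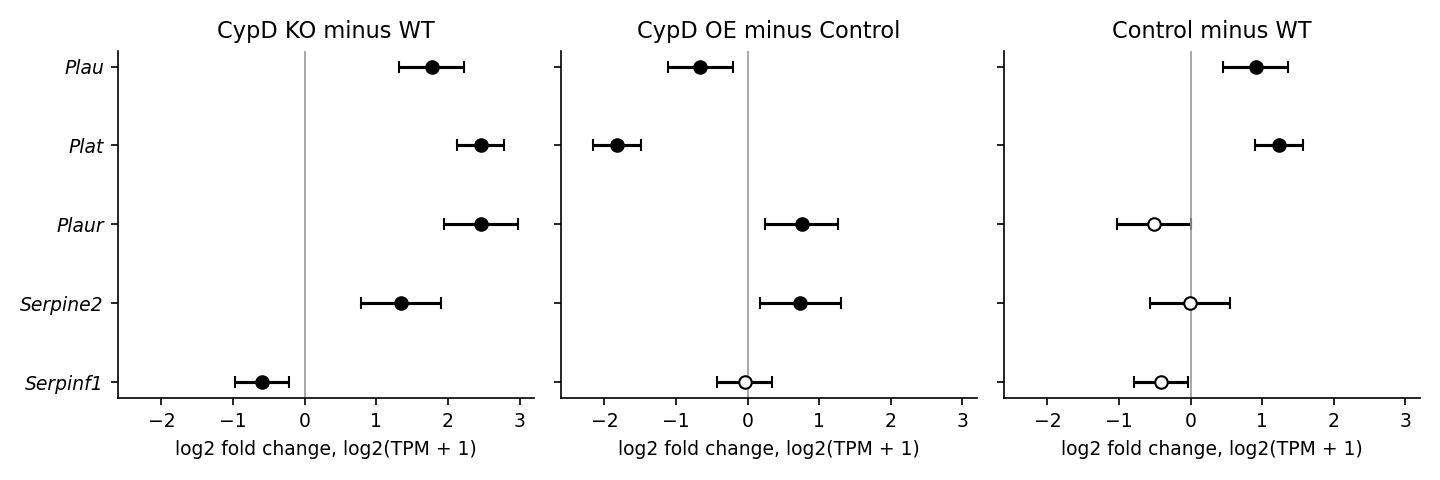
Log2 fold changes on the log2(TPM + 1) scale with 95% confidence intervals from limma, for the 5 genes in 3 comparisons; filled points have an adjusted p under 0.05 over all genes tested. *Plau* and *Plat* lie to the right of 0 in CypD KO and in Control against WT, and to the left in CypD OE against Control, whereas *Plaur* and *Serpine2* lie to the right in both CypD comparisons.

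Of the activators, tissue-type plasminogen activator was the more abundant in every library. *Plat* (ENSMUSG00000031538; GRCm39 chromosome 8, 23247709 to 23272871) had 1.64 and 1.48 TPM in WT, 13.5 and 12.6 TPM in CypD KO, 5.24 and 4.83 TPM in Control and 0.88 and 0.54 TPM in the CypD OE-labelled libraries. No 2 groups overlapped, and the order was CypD KO, Control, WT and CypD OE. The CypD KO mean (13.0 ± 0.700 TPM, SD, n = 2) was 8.36 times the WT mean (1.56 ± 0.113 TPM), with a difference of 2.46 on the log2 scale (standard error 0.14, limma adjusted p = 2.48e-05). The Control mean (5.04 ± 0.290 TPM) was 7.09 times that of the CypD OE-labelled libraries (0.71 ± 0.240 TPM), and the log2 fold change of CypD OE against Control was -1.83 (standard error 0.14, limma adjusted p = 1.41e-04). Of the 5 genes, *Plat* had the largest change between these groups. Control cells were above WT cells by 1.24 on the log2 scale (standard error 0.14, limma adjusted p = 0.00151). The libraries labelled CypD OE were below WT, with a log2 fold change of -0.59 (95% interval -0.92 to -0.26, limma adjusted p = 0.0219), where 27.7% of all genes tested differed. This last call was lost with 1 of 3 libraries left out, WT replicate 1, WT replicate 2 or CypD OE replicate 2 (limma adjusted p = 0.0926, 0.0602 and 0.0952), without the filter on low values (limma adjusted p = 0.0712) and in a fit of only these 4 libraries (limma adjusted p = 0.079). CypD KO cells were above Control cells by 1.22 (standard error 0.14, limma adjusted p = 5.71e-04), where 44.0% of all genes differed.

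Urokinase was scarce. *Plau* (ENSMUSG00000021822; GRCm39 chromosome 14, 20886722 to 20893453) had 0.22 and 0.18 TPM in WT, 3.68 and 2.6 TPM in CypD KO, 1.34 and 1.18 TPM in Control and 0.54 and 0.33 TPM in the CypD OE-labelled libraries. No 2 groups overlapped, and CypD KO and Control were the highest groups, as for *Plat*, with CypD OE next and WT last. The WT values correspond to approximately 5.2 and 4.0 fragments and those of CypD KO to 92.1 and 61.0, so the WT level is poorly determined at this depth. Exons of the antisense non-coding gene *Gm63115*, which is not a row of the table, overlap those of *Plau*. The log2 fold change was 1.77 in CypD KO against WT (95% interval 1.32 to 2.23, limma adjusted p = 3.65e-04), with a ratio of mean TPM of 15.7. With a pseudocount of 0.1 TPM in place of 1, it was 3.42. In the CypD OE-labelled libraries against Control it was -0.66 (standard error 0.19, limma adjusted p = 0.0336), but this call was lost whichever of the 4 libraries was left out (limma adjusted p from 0.0636 to 0.142). Control was above WT by 0.91 (limma adjusted p = 0.0156), again with the call lost without any 1 of the 4 libraries (limma adjusted p from 0.0561 to 0.0752). CypD OE and WT did not differ past the threshold (0.25, 95% interval -0.20 to 0.71, limma adjusted p = 0.371). CypD KO exceeded Control by 0.86 (limma adjusted p = 0.0102), and without CypD KO replicate 1 or Control replicate 2 the adjusted p was 0.0534 or 0.0519.

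The activators kept no fixed ratio to each other. *Plat* exceeded *Plau* in TPM, a unit per transcript length, by 7.45 and 8.22 times in WT, 3.68 and 4.83 times in CypD KO, 3.91 and 4.09 times in Control and 1.63 and 1.64 times in the CypD OE-labelled libraries. This ratio was highest in WT and lowest in CypD OE, and CypD KO and Control overlapped. The *Plau* values behind the WT and CypD OE ratios rest on approximately 4.0 to 13.8 fragments per library.

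The urokinase receptor, a glycolipid-anchored membrane protein, was the most abundant of the 5 transcripts in CypD KO cells. *Plaur* (ENSMUSG00000046223; GRCm39 chromosome 7, 24161875 to 24175394) had 11.6 and 9.32 TPM in WT, 61.4 and 62.4 TPM in CypD KO, 5.37 and 9.02 TPM in Control and 13.8 and 11.3 TPM in the CypD OE-labelled libraries. The CypD KO libraries stood far above the other 6, among which WT and CypD OE overlapped. CypD KO was above WT by 2.46 on the log2 scale (standard error 0.22, limma adjusted p = 1.45e-04), a ratio of mean TPM of 5.92. Unlike *Plat*, *Plaur* was not higher in Control than in WT: the log2 fold change was -0.51 (95% interval -1.03 to 0.001, limma adjusted p = 0.133). It was -0.18 without Control replicate 1 (limma adjusted p = 0.481) and -0.84 without Control replicate 2 (limma adjusted p = 0.0244), so its size depended on which Control library was kept. *Plaur* in the CypD OE-labelled libraries was above Control by 0.75 (standard error 0.22, limma adjusted p = 0.0319). That call was lost without Control replicate 1 (0.43, limma adjusted p = 0.101), without CypD OE replicate 1 (0.62, limma adjusted p = 0.151), without CypD OE replicate 2 (0.89, limma adjusted p = 0.0631) and in 4 other settings (limma adjusted p from 0.0518 to 0.0999). CypD OE and WT did not differ past the threshold (0.24, 95% interval -0.27 to 0.76, limma adjusted p = 0.449).

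The proximal promoters of *Plaur* and *Serpinf1* are shown because they hold the motifs searched for, and because *Plaur* rose and *Serpinf1* fell in the CypD KO comparison. RefSeq promoter windows of 300 bases on GRCm38.p6 were at hand for *Plaur*, *Serpine2* and *Serpinf1*, and were searched on both strands for TGANTCA, the site of AP-1 (Fos and Jun dimers), and for ACGTG, the core of the hypoxia response element, which is also part of the E-box CACGTG. *Plaur* had 1 match to TGANTCA, 69 bases before the transcription start, and none to ACGTG. *Serpinf1* had 1 match to ACGTG, 93 bases before the start, and none to TGANTCA. *Serpine2* had 0 matches to either. Of all 32851 promoter windows of this length, 7.81% hold TGANTCA and 19.6% hold ACGTG, so a match is a description of these letters only. The windows below run 5′ to 3′ on the strand of the gene, chr7:24462384-24462450 (plus strand) for *Plaur* and chr11:75422682-75422746 (minus strand) for *Serpinf1*, with the motif in capitals.
Plaur: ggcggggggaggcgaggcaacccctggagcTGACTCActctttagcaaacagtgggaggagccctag
Serpinf1: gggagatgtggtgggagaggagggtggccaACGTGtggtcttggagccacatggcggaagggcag

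Protease nexin-1, an inhibitor of thrombin, urokinase and plasmin, was low in WT and Control, and every CypD KO and CypD OE library had more. *Serpine2* (ENSMUSG00000026249; GRCm39 chromosome 1, 79763323 to 79839144) had 0.89 and 0.72 TPM in WT, 4.52 and 2.77 TPM in CypD KO, 1.06 and 0.56 TPM in Control and 2.16 and 1.83 TPM in the CypD OE-labelled libraries. WT and Control overlapped, and the CypD KO and CypD OE libraries were above all of them. The log2 fold change in CypD KO against WT was 1.34 (standard error 0.23, limma adjusted p = 0.00334), with a ratio of mean TPM of 4.53. In the CypD OE-labelled libraries against Control it was 0.74 (standard error 0.23, limma adjusted p = 0.0465), a call that was lost whichever of the 4 libraries was left out (limma adjusted p from 0.0515 to 0.199). Control and WT differed by -0.01 (95% interval -0.57 to 0.55, limma adjusted p = 0.989). CypD KO and CypD OE, neighbours in the order of levels, differed by -0.61 in CypD OE against CypD KO (95% interval -1.17 to -0.05), not past the threshold over all genes (limma adjusted p = 0.0703, where 48.9% of genes differed), and the difference was -0.33 without CypD KO replicate 1 (limma adjusted p = 0.317) and -0.88 without CypD KO replicate 2 (limma adjusted p = 0.0327).

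*Serpinf1* (ENSMUSG00000000753; chromosome 11 of GRCm39, 75299998 to 75322362) was the only one of the 5 with its highest level in WT. It had 15.7 and 18.9 TPM in WT, 10.4 and 11.7 TPM in CypD KO, 11.0 and 14.5 TPM in Control and 11.2 and 13.5 TPM in the CypD OE-labelled libraries. The WT libraries were above the other 6, and the CypD KO, Control and CypD OE libraries overlapped. In CypD KO against WT the log2 fold change was -0.59 (95% interval -0.97 to -0.22, limma adjusted p = 0.0199), the CypD KO mean being 64.1% of the WT mean. This call was lost without WT replicate 2, CypD KO replicate 1 or CypD KO replicate 2 (limma adjusted p = 0.106, 0.104 and 0.0511) and without the filter on low values (limma adjusted p = 0.051). In Control against WT it was -0.42 (95% interval -0.80 to -0.04, limma adjusted p = 0.105). The libraries labelled CypD OE differed from Control by -0.04 (95% interval -0.42 to 0.34, limma adjusted p = 0.872). Exons of *Smyd4* on the opposite strand overlap those of *Serpinf1*, and *Smyd4* was listed at up to 7.43 TPM; whether reads were assigned by strand is not given in the sources used here.

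Summed over *Plau* and *Plat*, activator transcripts amounted to 1.86 and 1.66 TPM in WT, 17.2 and 15.2 TPM in CypD KO, 6.58 and 6.01 TPM in Control and 1.42 and 0.87 TPM in the CypD OE-labelled libraries. CypD OE, with the lowest sum, was the one group in which *Serpine2* exceeded the activators, by 1.52 and 2.10 times. The ratio of *Serpine2* to the activator sum was 0.478 and 0.434 in WT, 0.262 and 0.183 in CypD KO and 0.161 and 0.0932 in Control, so no groups overlapped. *Serpine2* was thus highest in CypD KO in TPM but not relative to the activators. These sums compare transcripts, not active protein. The CypD OE sums rest on approximately 25.1 and 15.7 fragments of *Plat* and 13.8 and 8.6 of *Plau*. *Serpine2* in WT and Control rests on approximately 12.4 to 21.8 fragments per library, so the ratios are coarse.

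**Figure D3:**
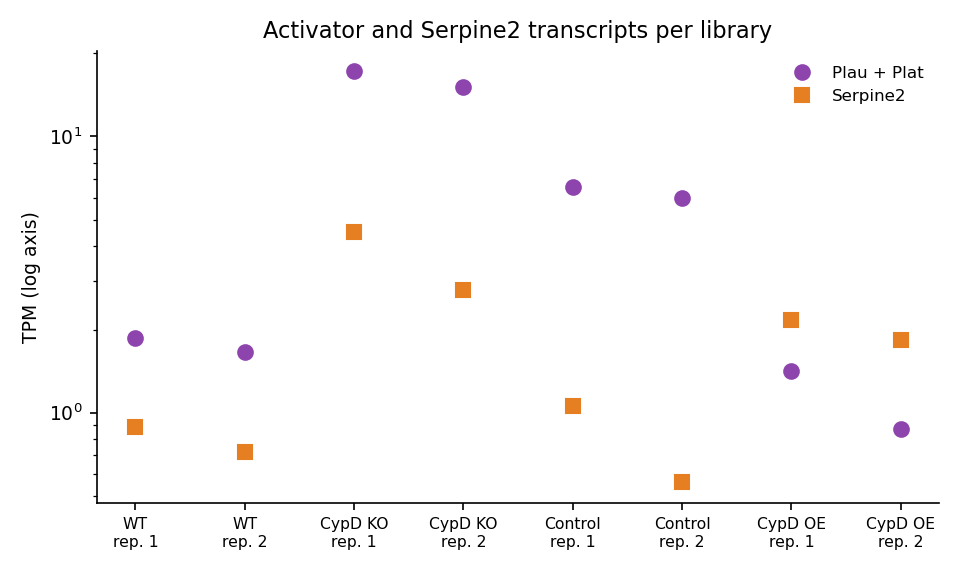
Summed TPM of the activators *Plau* and *Plat* (circles) and TPM of *Serpine2* (squares) in each of the 8 libraries, on a log axis. *Serpine2* lies below the activators in WT, CypD KO and Control, with the widest gap in Control, and above them in both CypD OE libraries.

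Genes that work with this system were taken from 6 lists of 57 genes in all, none of them among the 5. The lists were chosen with earlier results of these data known, so their counts are descriptions and not a test of enrichment. Of these, 15 were listed at 0 in every library and 22 were tested. In CypD KO against WT, 20 of the 22 rose, 1 fell and 1 did not pass the threshold, where 30.1% of all genes tested were higher and 18.4% lower, with a median log2 fold change of 0.97 against 0.09 over all genes. After the rescaling, *Plgrkt*, *Pnpla2* and *Lrp6* were no longer past the threshold in that comparison. In the CypD OE-labelled libraries against Control, 8 rose, 7 fell and 7 did not pass, where 19.0% of all genes were higher and 18.3% lower, with a median of 0.07 against 0.002. In Control against WT, 8 rose, 3 fell and 11 did not pass, where 12.1% of all genes were higher and 12.1% lower, with a median of 0.12 against 0.01. *Pdgfc* is in these counts but was tested only because it is high in CypD KO. *Bdnf*, also counted, was tested only through the CypD KO and CypD OE-labelled libraries.

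Plasminogen itself (*Plg*) was listed at 0 in every library. Cell surface proteins that bind plasminogen were abundant. *Anxa2*, annexin A2, which with *S100a10* forms a complex that docks plasminogen and tissue-type activator, stood at 177 and 180 TPM in WT, 705 and 690 TPM in CypD KO, 412 and 431 TPM in Control and 174 and 167 TPM in the CypD OE-labelled libraries. It rose by 1.96 on the log2 scale in CypD KO against WT (limma adjusted p = 6.54e-07) and by 1.24 in Control against WT, and fell by 1.299 in CypD OE against Control. The groups with the higher *Anxa2*, CypD KO and Control, were those with the higher *Plat*. *S100a10* rose by 1.56 in CypD KO (443 and 446 TPM against 152 and 148 TPM in WT), but Control (147 and 156 TPM) overlapped WT, with a difference of 0.01 (limma adjusted p = 0.860) that was -0.01 after the rescaling. The *Anxa2* to *S100a10* ratio was therefore 2.8 and 2.76 in Control, against 1.16 and 1.22 in WT, 1.59 and 1.55 in CypD KO and 1.57 and 1.63 in CypD OE. *Eno1*, enolase 1, which is a glycolytic enzyme and also a plasminogen receptor, has near-identical copies, so its level is uncertain. It was highest in Control, at 4329 and 4550 TPM against 2382 and 2281 TPM in WT, and lowest in CypD OE, at 1771 and 1749 TPM. Its log2 fold change was 0.46 in CypD KO against WT and -1.33 in CypD OE against Control. For *S100a10* the latter was -0.50 (limma adjusted p = 3.69e-04). Of the 4 tested genes of this list, 3 fell in CypD OE against Control and *Plgrkt* did not pass. *Plgrkt*, the transmembrane plasminogen receptor, ranged from 36.8 to 46.5 TPM over all libraries, with a log2 fold change of 0.22 in CypD KO (limma adjusted p = 0.014, and 0.162 after the rescaling). *Krt8* was listed at 0 in every library and *Cpb2* in 7 of the 8.

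Of 6 other protease inhibitors, *Serpini1* (neuroserpin) was tested. *Serpini1* was at 0.36 to 2.31 TPM over all libraries and did not pass the threshold in the CypD KO comparison (0.62, limma adjusted p = 0.168). *Serpinb2*, plasminogen activator inhibitor-2, was below the filter, at 0.78 and 0.62 TPM in CypD KO and listed at 0 in the other 6 libraries. *Serpina5* was listed at 0 throughout, and *Serpinf2*, *Serping1* and *A2m* did not exceed 0.25 TPM.

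The list of partners of the urokinase receptor and genes of clearance held 14 genes, of which 7 were tested. All 7 rose in CypD KO cells, against 30.1% of all genes tested. The vitronectin and fibronectin receptor subunits *Itga5* (log2 fold change 2.97), *Itgb3* (1.62), *Itgb1* (1.49) and *Itgav* (1.24) had the largest changes, with limma adjusted p from 6.57e-07 to 4.46e-05. *Itga5* went from 3.86 and 3.41 TPM (WT) to 36.5 and 34.2 TPM (CypD KO), with 3.07 to 4.17 TPM in the 4 libraries at 1% oxygen. In the CypD OE-labelled libraries against Control, *Itgav* (-0.79), *Itgb3* (-0.72) and *Lrp1* (-0.49) fell, *Itgb5* (1.25) and *Igf2r* (0.15) rose, and *Itga5* and *Itgb1* did not pass. The call of *Igf2r* was lost when 1 library was left out (limma adjusted p up to 0.197). *Lrp1*, the endocytic receptor that clears complexes of activator and inhibitor, was at 4.58 and 4.79 TPM in WT, 7.19 and 8.47 TPM in CypD KO, 7.13 and 7.91 TPM in Control and 5.53 and 4.65 TPM in the CypD OE-labelled libraries. Like *Plat*, it was higher in CypD KO and in Control than in WT (limma adjusted p = 0.00562 and 0.017), with adjusted p up to 0.0867 in Control and up to 0.110 in CypD OE when 1 library was left out. *Vtn*, *Fpr1* and *Fpr2* were listed at 0 in every library.

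Substrates and coagulation genes completed the lists. *Fn1* (fibronectin, a matrix substrate of plasmin), *Bdnf* and *Tgfb1* (growth factors made as precursors that plasmin can release) rose in CypD KO, with log2 fold changes of 3.23, 2.51 and 2.12 and limma adjusted p from 6.54e-07 to 9.92e-05. *Bdnf* did not exceed 0.9 TPM in WT and Control and passed the filter only through the CypD KO and CypD OE-labelled libraries, so its call is not free of the filter. *Pdgfc*, a growth factor that tissue-type activator cuts, passed the filter only through the CypD KO libraries, so it had to differ there and is given as values only: 6.4 and 5.05 TPM in CypD KO, 0.08 and 0.11 TPM in WT, and at most 0.75 TPM at 1% oxygen. *Tgfb1* (0.68) and *Fn1* (0.51) also rose in the CypD OE-labelled libraries against Control. The call of *Tgfb1* there was lost when 1 library was left out (limma adjusted p up to 0.10). The fibrinogen chain genes *Fga*, *Fgb* and *Fgg* were listed at 0 throughout. *F3*, tissue factor, the trigger of coagulation, was at 28.5 and 30.4 TPM in WT, 90.2 and 86.7 TPM in CypD KO, 33.3 and 35.1 TPM in Control and 61.5 and 59.4 TPM in the CypD OE-labelled libraries. It rose in both CypD comparisons (1.56 and 0.80, limma adjusted p = 3.81e-06 and 8.97e-05), as *Plaur* and *Serpine2* did. *Tfpi*, the inhibitor of tissue factor, rose by 0.34 in CypD KO, as did *Procr*, the endothelial protein C receptor, by 0.62 (limma adjusted p = 0.00952, and up to 0.0612 without 1 library). For *Tfpi* the log2 fold change was -0.88 in CypD OE against Control. Thrombin (*F2*) was listed at 0 in 7 of the 8 libraries. Its receptor gene *F2r* did not exceed 0.08 TPM.

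**Figure D4:**
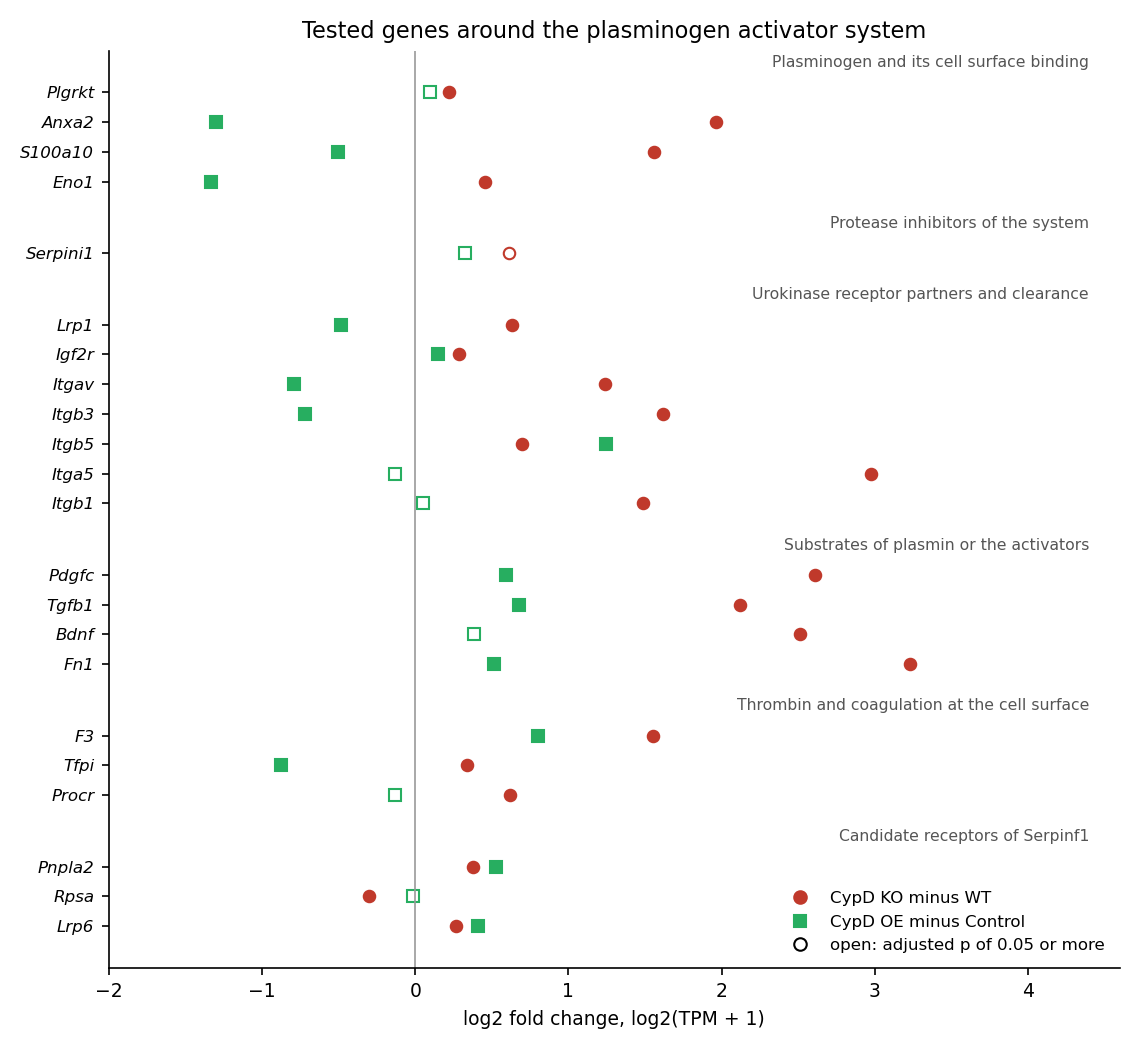
Log2 fold changes on the log2(TPM + 1) scale of the 22 tested list genes, in CypD KO against WT (circles) and CypD OE against Control (squares); filled symbols have an adjusted p under 0.05 over all genes tested. Circles lie to the right of 0 for all genes but *Rpsa*, with *Fn1* at 3.23, while the squares fall on both sides, with *Anxa2* and *Eno1* lowest.

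Of the candidate receptors of pigment epithelium-derived factor, the 3 tested changed by at most 0.53 on the log2 scale in the CypD KO and CypD OE comparisons below. *Pnpla2*, which is better known as a lipase of fat stores, and *Lrp6* were higher in CypD KO than in WT (0.38 and 0.26, limma adjusted p = 0.015 and 0.0165, and up to 0.082 and 0.0942 without 1 library) and higher in CypD OE than in Control (0.53 and 0.41). *Rpsa*, the laminin receptor, which has many processed copies between which reads could be divided, was lower in CypD KO (-0.30, limma adjusted p = 2.69e-04). *Plxdc1* and *Plxdc2* were below 1 TPM in every library.

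Urokinase, its receptor and tissue-type activator are also made by macrophages, fibroblasts and endothelial cells, whose markers were therefore read in the same libraries. Of the 6 leukocyte markers, *Cd68*, a lysosomal protein gene, rose with *Plau* and *Plaur*, from 3.75 and 3.45 TPM in WT to 21.9 and 23.3 TPM in CypD KO. The list summed to 3.67 to 4.48 TPM in WT, 24.2 to 25.3 TPM in CypD KO, 4.68 to 4.9 TPM in Control and 1.15 to 1.98 TPM in CypD OE, and *Lyz2* was also higher in CypD KO (1.85 and 1.8 TPM) than in WT (0.64 and 0.17 TPM). *Csf1r* reached 0.41 TPM in 1 CypD KO library, *Ptprc* and *Itgam* did not exceed 0.06 TPM and *Adgre1* was listed at 0. The 7 fibroblast markers summed to 17.9 to 20.2 TPM in WT, 35.3 to 38.0 TPM in CypD KO, 21.2 to 22.8 TPM in Control and 10.4 to 12.7 TPM in CypD OE, of which *Postn* made most in CypD KO (34.8 and 31.2 TPM against 8.04 and 8.07 TPM in WT). *Col1a2* moved the other way (9.03 and 6.87 TPM in WT, 1.09 and 2.17 TPM in CypD KO), as did *Pdgfrb* (2.5 TPM in both WT libraries, 1.07 and 1.25 TPM in CypD KO), and *Dcn* and *Thy1* were listed at 0 throughout. The 6 endothelial markers summed to 0.66 to 1.87 TPM in WT, 1.67 to 2.21 TPM in CypD KO, 3.29 to 4.21 TPM in Control and 0.41 to 0.92 TPM in CypD OE, with *Cdh5* and *Emcn* listed at 0. The 4 keratinocyte markers summed to at most 0.03 TPM. The part of these cell types in the results was not tested. In bulk RNA, fewer expressing cells and less RNA per cell cannot be told apart.

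Genes with the most similar pattern were found by Pearson's r of log2(TPM + 1) over the 8 libraries, among the other 13525 genes tested. Because the libraries form 4 groups of 2, r describes the likeness of group levels. For *Plat* they were *Hyal1* (a hyaluronidase, r = 0.998), *Prkx* and *Scpep1* (both 0.997). Mean *Hyal1* was 81.9 TPM in CypD KO, 43.8 in Control, 20.4 in WT and 14.5 in CypD OE. For *Plau* they were *6720469O03Rik* (0.996), *Itm2c* (0.995) and *Slc5a3* (0.992). For *Plaur* they were *Apobec1* (0.994), *Rnf11* (0.994) and *Mrps6* (0.992), for *Serpine2* *Parva* (0.988), *Zbtb1* (0.986) and *Patj* (0.982), and for *Serpinf1* *Alg8* (0.982), *Pdhb* (0.965) and *Nrde2* (0.952). No gene was among the nearest 3 of more than 1 of the 5.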

How the data were processed

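RNA-seq was carried out on 8 libraries of B16F10 cells. For the deposited table the authors used Cutadapt 3.4 for trimming, STAR 2.7.8a for alignment (Ensembl GRCm39) and RSEM 1.3.1, whose TPM values are written to 2 decimals. TPM has a fixed total in each library, so a few abundant transcripts can shift all others. The study tested read counts, which were not used here, and limma 3.58.1 (R 4.3.3; lmFit, eBayes with trend, two-sided, Benjamini-Hochberg) was fitted to log2(TPM + 1) of all 8 libraries. An exact permutation test of 2 against 2 libraries cannot give a p below 0.333. The fit was run on simulated data with independent normal noise, which does not cover low fragment numbers or effects shared by libraries. Fragment numbers were estimated from low values of single-transcript genes of 600 to 3000 bases, of which 83.8% to 86.7% came out whole (tolerance 0.15). Coordinates are from GENCODE vM39 on GRCm39; 98.8% of gene identifiers matched. The 5 genes and all lists were chosen with earlier results of these data known. Named are the 5 genes, the up to 4 largest called changes of each list, *Anxa2*, *S100a10*, *Plgrkt*, *Plg*, *Lrp1* and *Ppif*, and the 3 nearest genes in pattern; 1 further gene is not reported here and enters no count, and any other list gene that is named was chosen after its values were seen. Alternatives were other pseudocounts, filters, scaling, fits, a replicate block and leaving out each library.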

Additional observations from a re-analysis of the deposited data

How the results depend on the processing

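In CypD KO against WT, *Plau*, *Plat*, *Plaur* and *Serpine2* kept direction and call in every alternative run, as did *Plat* in CypD OE against Control and in Control against WT. With a filter of 5 TPM, *Plau* and *Serpine2* were not tested. Without a filter on low values, *Serpinf1* in CypD KO against WT (-0.595), and *Plaur* (0.755) and *Serpine2* (0.738) in CypD OE against Control, were no longer past the threshold. The same held for *Plaur* without trend (0.755), for *Plaur* with the replicate block (0.755, limma adjusted p = 0.0518) and for *Plaur* (0.755) and *Serpine2* (0.738) in a fit of only the 4 libraries compared. With the replicate block, *Serpinf1* in Control against WT was past it (-0.417, limma adjusted p = 0.0213), as were *Serpine2* in CypD OE against CypD KO (-0.609, limma adjusted p = 0.034) and against WT (0.730, limma adjusted p = 0.0327), and *Serpinf1* in CypD OE against WT (-0.458, limma adjusted p = 0.014). The causes were not tested. Replicate numbers come from library names only. Deviations of same-numbered libraries had correlations of -0.0295 to 0.108 across genes, which does not show whether single genes share a replicate effect. *Serpinf1* was higher in replicate 2 of every group. *Plau*, *Plat* and *Serpine2* were higher in replicate 1 of every group, and *Plaur* went both ways. Whether same-numbered libraries share a batch was not tested. Leaving out 1 library gave log2 fold changes of -0.719 to -0.471 for *Serpinf1* in CypD KO against WT. In CypD OE against Control it gave -0.764 to -0.552 for *Plau*, 0.428 to 1.081 for *Plaur*, 0.538 to 0.939 for *Serpine2* and -0.227 to 0.146 for *Serpinf1*. In Control against WT it gave 0.861 to 0.964 for *Plau*, -0.839 to -0.185 for *Plaur*, -0.209 to 0.192 for *Serpine2* and -0.604 to -0.23 for *Serpinf1*, and in CypD KO against Control -0.364 to 0.009 for *Serpinf1*. The number of genes called in Control against WT was 3269, 1981 in a fit of the 4 libraries and 2009 to 2109 without 1 library; in CypD OE against WT it was 3744, and 2295 to 2532 without 1 library. Fewer samples enter these fits. Genes of a few fragments, as *Plau* in WT, cannot be ranked finely at this depth.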
